A study of Mus musculus with 28 samples.

Results

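Renal endothelial cells were compared with proximal tubular cells of mouse kidneys that had received a scrambled miRNA after ischemic acute kidney injury. The 6 libraries were chosen by their titles, 3 labelled endothelial and 3 labelled tubular, out of 28 samples in the series. All 6 came from male FVB mice with acute kidney injury treated with the scrambled miR, which serves in the series beside injured groups given exosomes or a miR-486-5p mimic. The age of the mice, the time after injury and the dose were not given in the sources used here. Per the labels, kidneys were digested with enzymes, endothelial cells were then held on CD31 microbeads, and proximal tubules were collected by microdissection, each group standing for 3 males. Library numbers 12, 14 and 16 were used for endothelial and for tubular samples alike, with no word on whether a number marks 1 animal. Poly(A) RNA libraries were made from 20 ng of total RNA with a quality number above 7.

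The kidney endothelium lines the glomerular, peritubular and larger vessels, carries the receptors through which vascular growth factors act, and controls vessel tone, clotting and leukocyte entry. The proximal tubule takes back most of the filtered glucose, amino acids, phosphate and protein across its brush border, burns fatty acids to drive that transport, and makes glucose. It is the segment that ischemia injures most, and its injured cells are known for switching on genes such as Havcr1 and Lcn2.

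Depth was 9259773, 8273783 and 11763447 estimated reads in endothelial libraries 1, 2 and 3, and 12969393, 10214089 and 8583291 in tubular libraries 1, 2 and 3. Mitochondrially encoded genes took 9.08 to 14.3% of the reads in endothelial and 4.51 to 9.73% in tubular libraries. Between-group similarity was uneven. Log2 expression of endothelial library 1 correlated across genes at 0.859 to 0.863 with the tubular libraries, against 0.778 to 0.779 for endothelial library 2 and 0.806 to 0.817 for endothelial library 3. For some lists, counts below are therefore also given without single libraries, and a count given alone may still move. An alternative without endothelial library 1 and tubular library 3 was chosen after seeing the data.

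The defining markers of both labels were present, together with those of other kidney cells. The 12 endothelial markers summed to 528, 1011 and 559 TPM (a level scaled for transcript length and to the same total in each library) in endothelial libraries, and to 70.8, 33.7 and 53.7 TPM in tubular libraries. The 14 proximal tubule markers summed to 9457, 4324 and 5016 TPM in endothelial and to 21773, 23268 and 14971 TPM in tubular libraries. Kap alone, given below, made up most of this sum in every library. So proximal tubule transcripts were abundant in both groups, and highest among endothelial libraries in library 1. Thick ascending limb genes, 10 in all, summed to 3723, 8458 and 5740 TPM in endothelial and to 559, 378 and 255 TPM in tubular libraries. Umod alone, given below, made up most of that sum in every library. The 10 podocyte genes summed to 389 to 548 TPM in endothelial and to 7.47 to 31.7 TPM in tubular libraries. The 11 macrophage genes summed to 209 to 276 TPM in endothelial and to 31.7 to 69.2 TPM in tubular libraries. None of the endothelial, proximal tubule, thick ascending limb or macrophage markers was at 0 in any of the 6 libraries, and 1 podocyte marker, Clic3, was at 0 in tubular library 2. In RNA from isolated cells of mixed origin, fewer cells of a type and less RNA per cell cannot be told apart.

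**Figure D1:**
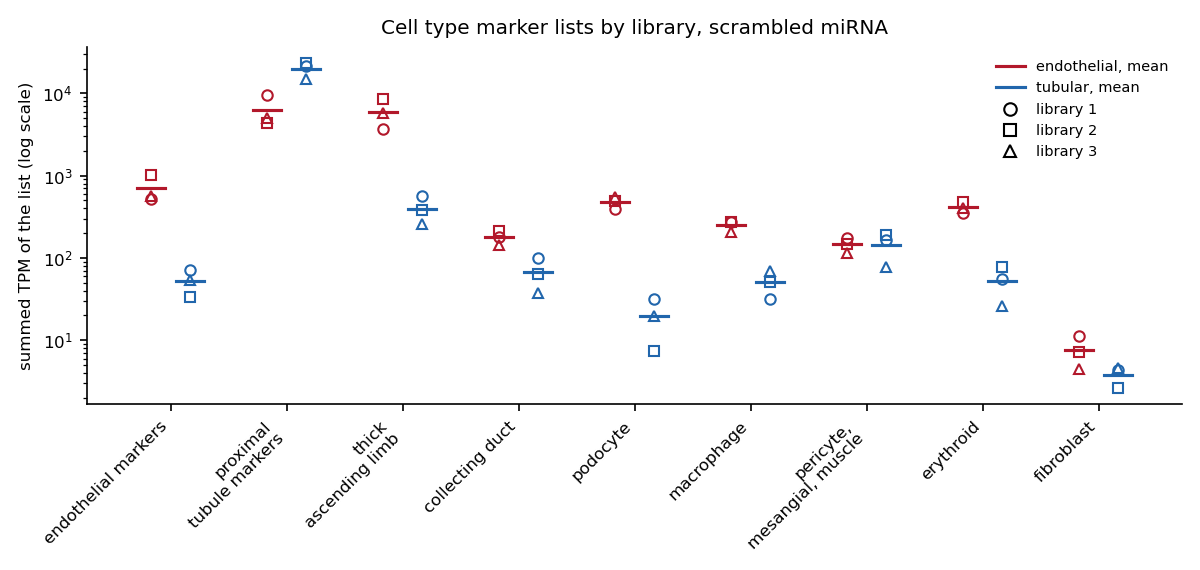
Summed TPM of 9 marker lists (log axis) in the 3 endothelial (red, left) and 3 tubular (blue, right) libraries, with symbols for the library number and bars for the group mean. Endothelial, thick ascending limb, podocyte, macrophage and erythroid sums are higher in every endothelial library, the proximal tubule sum is higher in every tubular library, and the pericyte, mesangial and smooth muscle sums overlap.

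Of 14401 genes tested, 5439 (37.8%) passed an adjusted p of 0.05 between endothelial and tubular libraries in edgeR's quasi-likelihood test with Benjamini-Hochberg adjustment. Endothelial levels were higher for 2949 of them (20.5% of genes tested) and lower for 2490 (17.3%). Higher genes differed more: their median log2 fold was 2.44 and 1788 exceeded 2, whereas the median was −1.04 and 279 were below −2 among lower genes. The median over all genes tested was −0.06. TPM values did not overlap between the groups for 3736 genes (25.9%) with every endothelial library above every tubular one, and for 2015 genes (14%) with every tubular library on top. Without endothelial library 2, 3493 genes passed, and without endothelial library 1 and tubular library 3 together, 5419. The lower count was 1385 without endothelial library 2, 1448 without endothelial library 3 and 1629 without tubular library 2. Scaling by library size alone moved the median over all genes to 0.14 and put 69.8% of the calls on the endothelial side, against 54.2% with TMM normalization.

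Pecam1, the adhesion molecule CD31 by which the cells were isolated, had 43.3, 69.5 and 40.1 TPM in endothelial libraries and 4.79, 3.92 and 4.84 TPM in tubular libraries, a log2 fold of 3.37 ± 0.27 (SE; adjusted p = 0.000127, edgeR). Since the beads bind its product, this difference checks the isolation and is no finding. Cdh5, the cadherin of endothelial junctions, had 26.4, 34.1 and 22.4 TPM in endothelial and 1.70, 1.24 and 1.54 TPM in tubular libraries (log2 fold 4.00 ± 0.23, adjusted p = 0.000109, edgeR). Neither gene's groups overlapped, and the tubular libraries held both transcripts at low levels. All 23 endothelial identity genes passed as higher, with a median log2 fold of 3.72 and a range of 1.80 to 5.85, and all 23 also passed when any single library was left out.

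Among endothelial transcription factors, 17 of 18 tested were higher, with a median of 3.43. Erg, an ETS factor that maintains endothelial identity, had 7.62, 9.68 and 7.28 TPM in endothelial libraries and 0.434, 0.239 and 0.687 TPM in tubular libraries. Its log2 fold was 3.87 ± 0.40 (adjusted p = 0.000296, edgeR). Ets1 (3.77 ± 0.33) and the SOX factors Sox17 (4.47 ± 0.63) and Sox18 (3.78 ± 0.37) passed as well. The exception was Nr2f2, a factor of venous identity that other cells also make, at 0.51 ± 0.19 (adjusted p = 0.0584, edgeR).

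Genes of each vascular bed were found. In the glomerular endothelial list 6 of 8 were higher, with Ehd3, an endocytic recycling protein, at 24.8, 47.0 and 33.1 TPM in endothelial and 1.76, 0.792 and 0.738 TPM in tubular libraries (4.85 ± 0.39, adjusted p = 0.000133, edgeR). Mapt and Lpl did not pass, at −0.11 ± 0.21 and −0.16 ± 0.29. Of 11 arterial genes 10 were higher, led by the gap junction genes Gja5 (5.53 ± 0.31) and Gja4 (4.56 ± 0.52). Cxcl12, a chemokine that the list held as arterial, was lower, with 17.0, 9.34 and 7.26 TPM in endothelial and 60.6, 42.9 and 15.6 TPM in tubular libraries (−1.88 ± 0.40, adjusted p = 0.00723, edgeR), endothelial library 1 lying above tubular library 3. The capillary and venous list had 7 of 8 higher, among them Plvap, which forms the diaphragms of fenestrae (2.64 ± 0.35), and Igfbp3 (2.98 ± 0.49). Lymphatic genes were sparse. Only 3 of 6 could be tested, all higher, and of these Pdpn is made by podocytes too.

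All 19 vascular receptor genes passed as higher, with a median log2 fold of 3.75. The largest fold of the list, 5.33, was that of Pdgfra, which the fibroblast list holds too. Pdgfrb and Notch3 are also in the list of pericyte, mesangial and smooth muscle genes. The part of such cells in this count was not tested. Kdr, the main VEGF receptor, had 27.3, 46.4 and 29.1 TPM in endothelial and 2.05, 0.908 and 1.07 TPM in tubular libraries (4.53 ± 0.35, adjusted p = 0.000117, edgeR). Flt1 (3.72 ± 0.30), which also binds VEGF, Tie1 (4.13 ± 0.40), an orphan partner of the angiopoietin receptor, and Notch4 (4.31 ± 0.35) were of like size. The ligands were divided: 9 of 17 were higher and 2 lower. Jag2 (4.55 ± 0.56), a Notch ligand, and Efnb2 (4.30 ± 0.34), the arterial ephrin, were high, and Pdgfb, which recruits pericytes, differed little (0.92 ± 0.22, adjusted p = 0.0122, edgeR), its TPM overlapping between groups. Vegfa, which both receptors bind, had 38.1, 44.8 and 34.1 TPM in endothelial and 54.8, 38.0 and 19.0 TPM in tubular libraries, which overlap (0.02 ± 0.30, adjusted p = 0.964, edgeR). Vegfb (−0.85 ± 0.27) and Angpt1 (−1.24 ± 0.30) were the lower ones, and Vegfb no longer passed when endothelial library 1, 2 or 3 or tubular library 1 or 2 was left out.

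Genes that set vessel tone were higher for 11 of 16 tested, none lower. Calcrl, the adrenomedullin receptor, had 19.7, 25.7 and 23.0 TPM in endothelial libraries against 1.24, 0.0859 and 0.773 TPM in tubular libraries (4.48 ± 0.55), and its partner Ramp2 was at 1.80 ± 0.22. Nos3, endothelial nitric oxide synthase, was at 3.50 ± 0.25. Ren1, the renin gene of juxtaglomerular cells, overlapped between groups, with 114, 85.6 and 53.0 TPM in endothelial and 142, 178 and 52.9 TPM in tubular libraries (−0.20 ± 0.25, adjusted p = 0.561, edgeR). In the coagulation list 7 of 12 were higher, including the thrombin receptor F2r (4.35 ± 0.41), thrombomodulin, Thbd (3.81 ± 0.37), and tissue plasminogen activator, Plat (4.42 ± 0.56). Plau, Plaur, F3 and Anxa5 were among those that did not pass.

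**Figure D2:**
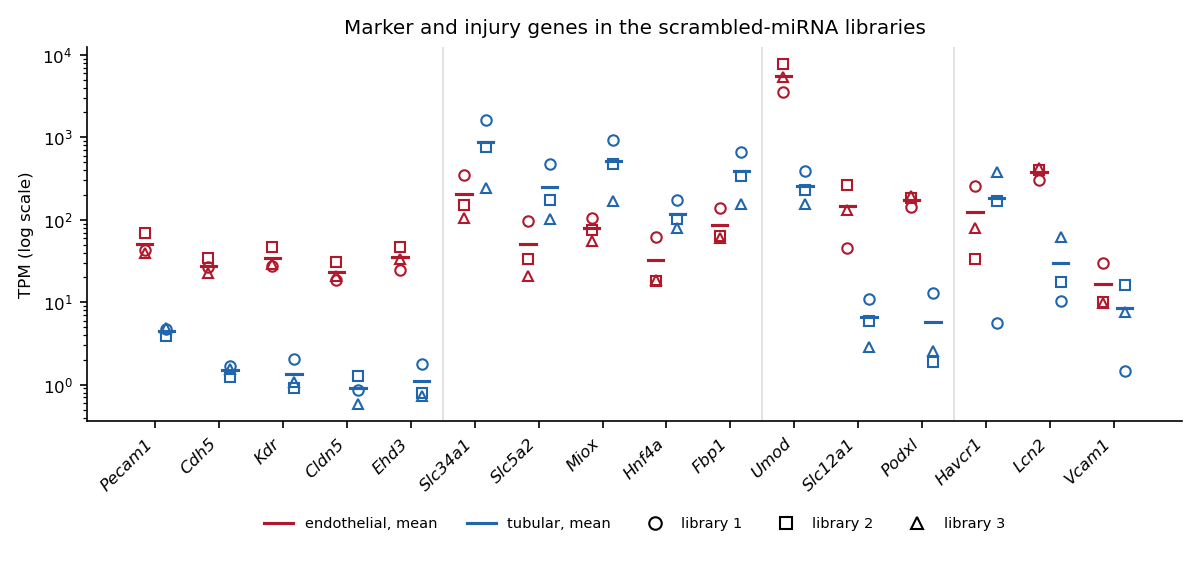
TPM (log axis) of 16 genes in each library, endothelial (red) left of tubular (blue), with bars for group means and symbols for library numbers. The 5 vascular genes at left, Umod, Slc12a1, Podxl and Lcn2 are higher in every endothelial library, Slc5a2, Miox, Hnf4a and Fbp1 are higher in every tubular library, and Slc34a1, Havcr1 and Vcam1 overlap.

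Proximal tubule transport genes were lower in endothelial libraries, by smaller folds than those of the vascular genes. On the apical side 15 of 20 tested were lower and 2 higher, with a median log2 fold of −1.76. The lower count was 11 without endothelial library 2 and 16 without endothelial library 1 or tubular library 3. Slc34a1, the main phosphate transporter, had 352, 151 and 106 TPM in endothelial and 1611, 765 and 241 TPM in tubular libraries (−2.30 ± 0.62, adjusted p = 0.0201, edgeR). Its groups overlap, since endothelial library 1 lies above tubular library 3, and the call was lost without endothelial library 2 or 3 or tubular library 1. Slc5a2, the glucose transporter SGLT2, had 97.4, 33.2 and 20.6 TPM in endothelial and 472, 175 and 103 TPM in tubular libraries (−2.38 ± 0.57, adjusted p = 0.0119, edgeR), and passed unless endothelial library 2 was left out. The lactate transporter Slc5a12 (−2.37 ± 0.71, adjusted p = 0.0297, edgeR) lost its call without endothelial library 2 or tubular library 1 or 2. The 2 higher genes were Slc5a1, the glucose transporter SGLT1 (1.64 ± 0.34), and Slc9a3, the sodium-proton exchanger NHE3 (1.24 ± 0.28), and Slc9a3 is a gene of the thick ascending limb as well. Aqp1, a water channel also made by endothelium, was at −0.15 ± 0.36.

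On the basolateral side 10 of 12 were lower and none higher. The organic anion transporter Slc22a8 had 13.3, 9.45 and 5.93 TPM in endothelial and 59.5, 28.6 and 10.5 TPM in tubular libraries (−1.93 ± 0.49, adjusted p = 0.0149, edgeR). Endothelial library 1 lay above tubular library 3, and the call was lost without endothelial library 2 or 3. The list also held Slc37a4 (−1.86 ± 0.28), whose product moves glucose 6-phosphate into the endoplasmic reticulum and does not sit in the basolateral membrane. This count was the least steady of the transport lists: 5 were lower without endothelial library 2 or endothelial library 3, 6 without tubular library 1, and 12 without endothelial library 1 and tubular library 3. Brush border enzymes were lower for 9 of 14, and 5 without endothelial library 3. Dpep1, a dipeptidase, was at −2.76 ± 0.51 and Folh1, a folate hydrolase, at −1.79 ± 0.33. Mme, neprilysin, which podocytes also carry, was the higher member, with 16.9, 18.9 and 23.2 TPM in endothelial and 1.84, 3.30 and 1.99 TPM in tubular libraries (2.95 ± 0.37). The receptors for filtered protein, megalin (Lrp2, −1.27 ± 0.55, adjusted p = 0.105, edgeR) and cubilin (Cubn, −1.46 ± 0.53, adjusted p = 0.0609, edgeR), did not pass. Their co-receptor Amn (−1.83 ± 0.40), the chaperone Lrpap1 (−1.48 ± 0.32), the adaptor Dab2 (−1.13 ± 0.32) and the albumin recycling receptor Fcgrt (−1.17 ± 0.20) did. That makes 4 of 10 in the endocytosis list, and 7 without endothelial library 1. The share called, 40%, stands beside 37.8% over all genes tested, 17.3% as lower.

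Of 14 proximal tubule transcription factors 8 were lower. Hnf4a, a nuclear receptor that drives proximal tubule maturation, had 61.5, 17.9 and 18.7 TPM in endothelial and 175, 101 and 78.8 TPM in tubular libraries (−1.95 ± 0.39, adjusted p = 0.0055, edgeR). Endothelial library 1 was its highest endothelial value and still lay below every tubular one. Ppara (−1.93 ± 0.27), the receptor that controls fatty acid burning, also passed. Pax2 was the higher one (0.82 ± 0.25, adjusted p = 0.0309, edgeR), a call lost in 5 of the 6 fits that left out 1 library. Kap, an androgen-regulated protein of the proximal tubule, had 7670, 3450 and 4252 TPM in endothelial and 13662, 18271 and 12530 TPM in tubular libraries (−1.77 ± 0.36, adjusted p = 0.00614, edgeR). In the list of hormone genes 4 of 9 were lower (44.4% called, beside 37.8% over all genes tested, 17.3% as lower). The count was 2 when any of endothelial libraries 1, 2 and 3 or tubular libraries 1 and 2 was left out. Vdr, the vitamin D receptor, was among those that lost the call.

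The tubular libraries differed strongly from one another. Apical transporters summed to 4386, 2777 and 1570 TPM in tubular libraries 1, 2 and 3, while the 26 genes of tubule injury and repair summed to 730, 1954 and 3015 TPM there. In endothelial libraries the same sums were 1645, 958 and 703 TPM for transporters and 11592, 13035 and 14424 TPM for injury genes. Spp1 alone, given below, made up most of the injury sum in every endothelial library. Havcr1, the injury marker KIM-1, had 260, 33.5 and 78.7 TPM in endothelial and 5.64, 170 and 376 TPM in tubular libraries (−0.94 ± 1.12, adjusted p = 0.549, edgeR). Tubular library 1 had the highest transporter sum and the lowest injury sum of its group. With 3 libraries a group, no relation between these sums was tested. Of 13 cell cycle genes tested 1 was lower, Ccnd1 (−1.24 ± 0.29), which passed unless endothelial library 2 was left out, and without endothelial library 1 the lower count was 4.

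The metabolic genes fell into lists with distinct patterns. All 9 genes of gluconeogenesis and fructose use were lower in endothelial libraries, and their median was −2.40. Fbp1, fructose bisphosphatase, had 139, 63.5 and 60.2 TPM in endothelial and 659, 344 and 156 TPM in tubular libraries (−2.53 ± 0.46, adjusted p = 0.00373, edgeR). Khk, which phosphorylates fructose, was at −2.58 ± 0.35 and G6pc, which releases free glucose, at −2.62 ± 0.66. All 17 amino acid and one-carbon enzymes tested were lower, with a median of −2.17, among them Gatm (−3.21 ± 0.62) for creatine synthesis, Hpd (−3.89 ± 0.49) for tyrosine breakdown and Prodh2 (−2.83 ± 0.47) for hydroxyproline. Both lists kept at least 7 and 16 lower members when single libraries were left out.

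Fatty acid oxidation genes were lower for 19 of 24, with a median of −1.14. Ehhadh, a peroxisomal enzyme, had 36.6, 37.7 and 34.7 TPM in endothelial and 117, 201 and 98.7 TPM in tubular libraries (−2.13 ± 0.31, adjusted p = 0.00148, edgeR), while Cpt1a, the liver-type gate of mitochondrial uptake, was at −0.09 ± 0.22. Nuclear genes of the respiratory chain shifted by little but in concert: 24 of 26 were lower, with a median of −0.81 and a range of −1.20 to −0.54. Sdhb, a subunit of succinate dehydrogenase, had 99.1, 99.3 and 85.2 TPM in endothelial and 236, 178 and 144 TPM in tubular libraries (−1.20 ± 0.18, adjusted p = 0.00172, edgeR). Their count was 13 without endothelial library 1 and 15 without endothelial library 2, tubular library 1 or tubular library 2. None of the 13 mitochondrially encoded genes passed, and all had positive log2 folds, with a median of 0.52 and values of 0.16 to 0.75. The shares of reads from mitochondrial genes given above overlapped between the groups. In TPM the 13 genes did not overlap, with sums of 219929, 269141 and 291295 in endothelial and 107717, 194222 and 143377 in tubular libraries. The part of these differences in the other lists was not tested.

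Glycolysis genes went both ways. Hk1, the hexokinase of most tissues, had 36.9, 62.6 and 41.0 TPM in endothelial and 7.68, 6.44 and 5.47 TPM in tubular libraries (3.13 ± 0.35, adjusted p = 0.000399, edgeR). The glucose transporter Slc2a1 (1.82 ± 0.46), the phosphofructokinases Pfkp (1.43 ± 0.28) and Pfkl (1.11 ± 0.21) and pyruvate kinase Pkm (2.84 ± 0.25) were higher too, in all 8 of 19. Tpi1, Gapdh, Pgk1, Pgam1 and Ldha were lower, by −0.58 to −0.85. The lower calls numbered 0 without endothelial library 2, 1 without endothelial library 3, 2 without tubular library 2 and 3 without endothelial library 1 or tubular library 1, while the higher calls numbered at least 7 in each. The list's median was 0.07, within the shift that scaling can make.

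**Figure D3:**
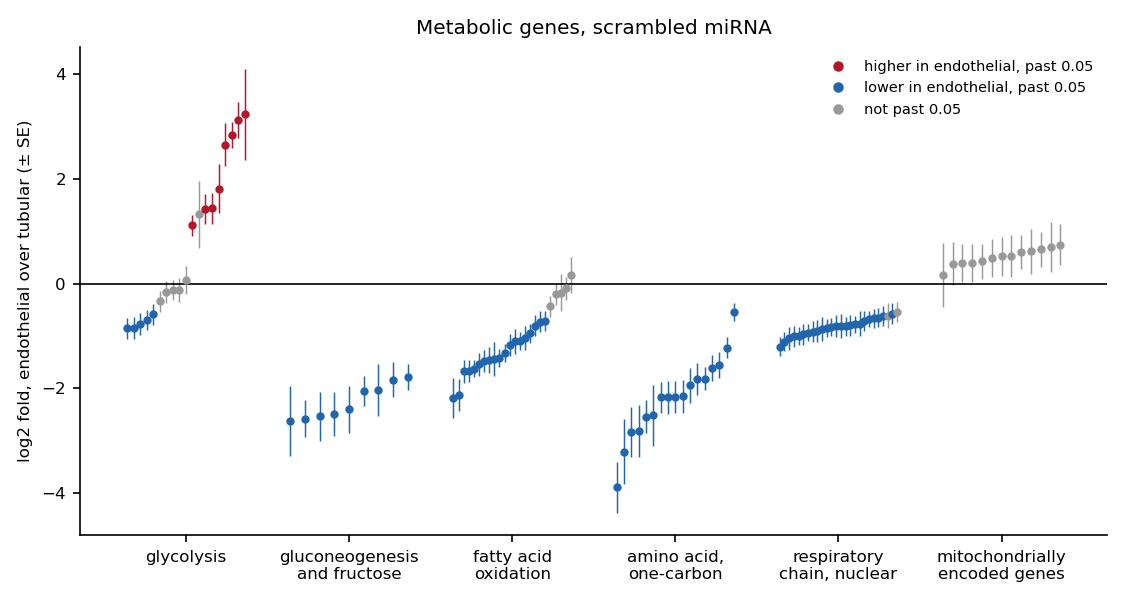
Log2 fold of endothelial over tubular libraries (± SE of the fit) for every tested member of 6 metabolic lists, ordered by size within each list; colour marks genes past an adjusted p of 0.05. Gluconeogenesis and amino acid genes lie lowest, nuclear respiratory chain genes form a narrow band with a median of −0.81, mitochondrially encoded genes lie above 0 without passing, and glycolysis genes spread to both sides.

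Of the 26 tubule injury and repair genes 12 were higher in endothelial libraries and none lower, with a median of 1.59. Without tubular library 1, 13 were higher and 2 lower. Lcn2, an iron carrier made by injured tubules, had 305, 405 and 419 TPM in endothelial and 10.3, 17.8 and 61.2 TPM in tubular libraries (3.39 ± 0.68, adjusted p = 0.00575, edgeR). Spp1, osteopontin, was the most abundant of the list, with 7350, 9571 and 10485 TPM in endothelial and 265, 740 and 1275 TPM in tubular libraries (3.39 ± 0.64). Clu, clusterin, followed with 1888, 1343 and 1765 TPM in endothelial and 48.2, 173 and 197 TPM in tubular libraries (3.31 ± 0.56). Vim, the filament of mesenchymal and endothelial cells, was at 3.52 ± 0.18. The members that did not pass included Havcr1 as above, Krt20 (−1.32 ± 1.01, adjusted p = 0.34, edgeR), Vcam1 (0.66 ± 0.82, adjusted p = 0.562, edgeR) and Sox9 (−0.04 ± 0.56). Thick ascending limb genes, 8 of 10 of them higher, summed to 3723 to 8458 TPM in endothelial against 255 to 559 TPM in tubular libraries. Across tubular libraries 1, 2 and 3 their sum fell (559, 378 and 255 TPM) while the injury sum rose (730, 1954 and 3015 TPM). Their part in the injury list was not tested.

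Immediate early and heat shock genes were higher for 11 of 18. The inducible HSP70 gene Hspa1b had 114, 134 and 140 TPM in endothelial and 16.4, 4.45 and 3.14 TPM in tubular libraries (3.77 ± 0.56), and its near-identical copy Hspa1a was at 3.73 ± 0.47, so the split of reads between them is uncertain. Atf3, a stress-induced factor, was at 2.05 ± 0.46, whereas Fos (0.44 ± 0.43) and Jun (0.59 ± 0.32) did not pass. Without endothelial library 2 the count was 5, and without endothelial library 3 it was 7. Antioxidant genes were lower for 9 of 17: Gpx3, the plasma glutathione peroxidase made by proximal tubules, had 4215, 1847 and 1893 TPM in endothelial and 12342, 8372 and 6211 TPM in tubular libraries (−1.89 ± 0.39, adjusted p = 0.00605, edgeR), and catalase, Cat, was at −1.68 ± 0.23. Nfe2l2, the gene of the factor NRF2 that controls many of them, was higher (1.03 ± 0.20). Without endothelial library 2 or 3 the lower count was 5, and without tubular library 3 the higher count was 4. Among hypoxia genes 4 were higher and 2 lower of 12 (50% called, beside 37.8% over all genes tested). The lower count was 1 without endothelial library 2 or 3 or tubular library 2. Epas1 (2.13 ± 0.37), the endothelial HIF subunit, and Hif1a (1.45 ± 0.20) were on the endothelial side.

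Inflammatory genes leaned to the endothelial libraries. Chemokine ligands were higher for 6 of 12, with Cxcl2, which draws neutrophils, at 32.8, 27.5 and 25.8 TPM in endothelial and 0.860, 7.53 and 2.18 TPM in tubular libraries (3.15 ± 0.76, adjusted p = 0.0124, edgeR). The macrophage chemokines Ccl3 and Ccl4 were at 3.46 ± 0.53 and 2.94 ± 0.45, and Cxcl1 was at −1.19 ± 0.57 without passing. NF-kB and cytokine genes were higher for 11 of 15, Il1b at 2.99 ± 0.44, and interferon response genes for 12 of 15, Ifitm3 at 3.40 ± 0.24 and Irf7 at 2.15 ± 0.31. The NF-kB count was 8 without endothelial library 2 and 13 without tubular library 2, and the interferon count was 9 without endothelial library 3. Among receptors, Cxcr4 was higher (2.77 ± 0.26) and Ackr3, which binds the same chemokine as Cxcr4, was lower, with 7.43, 5.67 and 5.61 TPM in endothelial and 17.8, 12.3 and 13.1 TPM in tubular libraries (−1.34 ± 0.16, adjusted p = 0.000595, edgeR). Adhesion genes were higher for 4 of 8: Icam2 (3.98 ± 0.39), Jam2 (4.84 ± 0.35), Cd47 (1.21 ± 0.20) and the endothelial selectin Sele, which was scarce at 0.683 to 1.83 TPM in endothelial and at most 0.0160 TPM in tubular libraries. Icam1 (0.32 ± 0.32) and Vcam1 did not pass. The count of chemokine receptors, 5 higher of 7, was 3 without endothelial library 2 or tubular library 2. Macrophage genes, 9 of 11 higher with a median of 2.26, leaned to the endothelial libraries too, and their part in these lists was not tested. MHC genes passed as higher for 3 of 16 (18.8%), near the 20.5% over all genes tested. The count was 0 without endothelial library 2 and 7 without tubular library 2.

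Of 13 claudins tested 8 were higher and 2 lower. The lower count was 0 without endothelial library 3, 1 without endothelial library 2 or tubular library 1 or 2, and 3 without tubular library 3. Cldn5, the endothelial claudin, had 18.5, 30.4 and 20.5 TPM in endothelial and 0.861, 1.29 and 0.576 TPM in tubular libraries (4.36 ± 0.33), and Cldn19, a claudin of the thick ascending limb, was at 4.39 ± 0.31. Cldn2, the leaky claudin of the proximal tubule, had 228, 60.5 and 66.0 TPM in endothelial and 523, 293 and 250 TPM in tubular libraries (−1.38 ± 0.38, adjusted p = 0.021, edgeR), a call lost without endothelial library 2 or 3 or tubular library 1 or 2. Among 22 cadherin and junction genes 13 were higher, including the epithelial genes Cdh1, Epcam and Ocln beside the endothelial Cdh5 and Esam. The gap junction genes Gjb1 (−1.66 ± 0.26) and Gjb2 (−1.62 ± 0.39) were the 2 lower, Gjb2 losing its call without endothelial library 2 or 3. Basement membrane genes were higher for 16 of 22: perlecan, Hspg2, was at 3.90 ± 0.27, Lamb2, the laminin chain of the glomerulus, at 3.63 ± 0.33 and Sparc at 3.11 ± 0.40. Of 16 integrin subunits 12 were higher and none lower. Itga8, a subunit of mesangial and smooth muscle cells, had the largest fold, with 15.6, 30.8 and 20.6 TPM in endothelial and 0.781, 0.0713 and 0.0777 TPM in tubular libraries (6.08 ± 0.55). Podocyte genes, 10 of 10 higher, thick ascending limb genes, 8 of 10, and collecting duct genes, 5 of 8, leaned to the endothelial libraries too. Of pericyte, mesangial and smooth muscle genes 5 of 9 were higher. Their sums overlapped, at 176, 148 and 116 TPM in endothelial and 166, 188 and 77.0 TPM in tubular libraries. The part of any of these cell types in these lists was not tested.

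Reported targets of miR-486-5p were higher in endothelial libraries or did not pass. In the list of targets and host gene 4 of 9 tested were higher, Pik3r1 (1.35 ± 0.20), Smad1 (0.97 ± 0.24), Pim1 (2.25 ± 0.21) and Igf1 (3.44 ± 0.63), with a median of 0.25. This share, 44.4%, stands beside 37.8% called over all genes tested, 20.5% as higher. No result about the targets as a set is drawn from it. Smad1 did not pass without endothelial library 2 or 3. Foxo1, a transcription factor held in check by AKT, had 3.48, 2.95 and 2.73 TPM in endothelial and 3.33, 3.19 and 1.60 TPM in tubular libraries (−0.03 ± 0.23, adjusted p = 0.94, edgeR). Its values overlapped between cell types. The fold of Igf1 rests on counts, and its TPM, 0.299 to 1.57 in endothelial and 0.186 to 0.351 in tubular libraries, overlapped. Ank1, the host gene of the miRNA, was at 0 to 0.0319 TPM in endothelial and 0 to 0.0120 TPM in tubular libraries and was too low to test. Of 21 PI3K and AKT genes 7 were higher and 2 lower (42.9% called, beside 37.8% over all genes tested). The lower genes were the growth kinase Mtor (−0.73 ± 0.24) and Pik3cb (−0.71 ± 0.19), a catalytic subunit of PI3K, and both calls were lost without endothelial library 2 or 3 or tubular library 1 or 2.

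Transcripts of other nephron segments accompanied the endothelial ones. Umod, uromodulin of the thick ascending limb, had 3505, 7737 and 5339 TPM in endothelial and 387, 228 and 154 TPM in tubular libraries (4.39 ± 0.48, adjusted p = 0.000365, edgeR). That exceeds the summed endothelial markers in every endothelial library. Slc12a1, the transporter NKCC2 of the same segment, had 45.3, 261 and 133 TPM in endothelial and 11.1, 5.96 and 2.86 TPM in tubular libraries (4.41 ± 0.71). Collecting duct genes were higher for 5 of 8, with the water channel Aqp2 at 1.57 ± 0.41, and for 3 of 8 without endothelial library 2. Intercalated cell genes were higher for 2 of 6 (33.3% called, beside 37.8% over all genes tested), while none of 6 distal tubule genes passed. All 10 podocyte genes were higher, with a median of 4.46. Ptpro, a phosphatase of the podocyte surface, had 18.6, 15.5 and 14.7 TPM in endothelial and 0.621, 0.135 and 0.363 TPM in tubular libraries (5.13 ± 0.52).

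Among blood and stromal cells, macrophage genes such as Adgre1 (3.46 ± 0.33) and Lyz2 (3.04 ± 0.27) were higher in endothelial libraries, as were 5 of 6 erythroid genes. Hbb-bs, a beta-globin gene, had 174, 259 and 204 TPM in endothelial and 24.8, 33.8 and 8.95 TPM in tubular libraries (2.96 ± 0.41), and the near-identical Hba-a1 and Hba-a2 were at 2.59 ± 0.25 and 2.65 ± 0.41, with reads that the counting may split between them. The platelet chemokine Pf4 was at 3.07 ± 0.51, and 2 of 3 platelet genes tested passed, against 1 in the fits without any library but tubular library 2. Neutrophil genes passed for 3 of 6, and for 5 of 6 without tubular library 2 but at most 2 without any other single library. Of 8 T and NK cell genes 2 could be tested and Lck passed, and of 5 B cell genes 2 could be tested and both passed. Of 8 fibroblast genes 5 could be tested and 2 passed (40%, beside 37.8% over all genes tested). The fibroblast count was 1 without endothelial library 2 or 3 or tubular library 2.

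Across all genes that averaged at least 100 TPM in the higher group, the 10 largest endothelial folds were those of Podxl (4.78 ± 0.39), Cdkn1c (4.67 ± 0.56), Plat, Slc12a1, Umod, Cd24a (4.09 ± 0.49) and 4 genes known by number only. Gm23849 (5.80 ± 0.65) and Gm24265 (5.44 ± 1.04) are annotated as snRNA, Gm6212 (5.78 ± 0.93) as a processed pseudogene and Gm44588 (5.20 ± 0.57) as antisense. Such short or copied sequences share reads with related genes, and no strand setting was given in the sources used here, so their values are uncertain. Gm6212 and Gm24265 were at 0 TPM in tubular libraries 1 and 2. At the tubular end stood Gatm, Akr1c21 (−2.95 ± 0.54), Ttc36 (−2.83 ± 0.56), Miox (−2.81 ± 0.49), Nat8f1 (−2.75 ± 0.48), Pecr (−2.71 ± 0.48), Cela1 (−2.58 ± 0.47), Khk, Ak4 (−2.54 ± 0.44) and Fbp1. Miox, which starts inositol breakdown in the proximal tubule, had 106, 74.9 and 55.1 TPM in endothelial and 919, 468 and 168 TPM in tubular libraries. Every one of these calls, at both ends, held in each of the 6 fits that left out a single library.

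**Figure D4:**
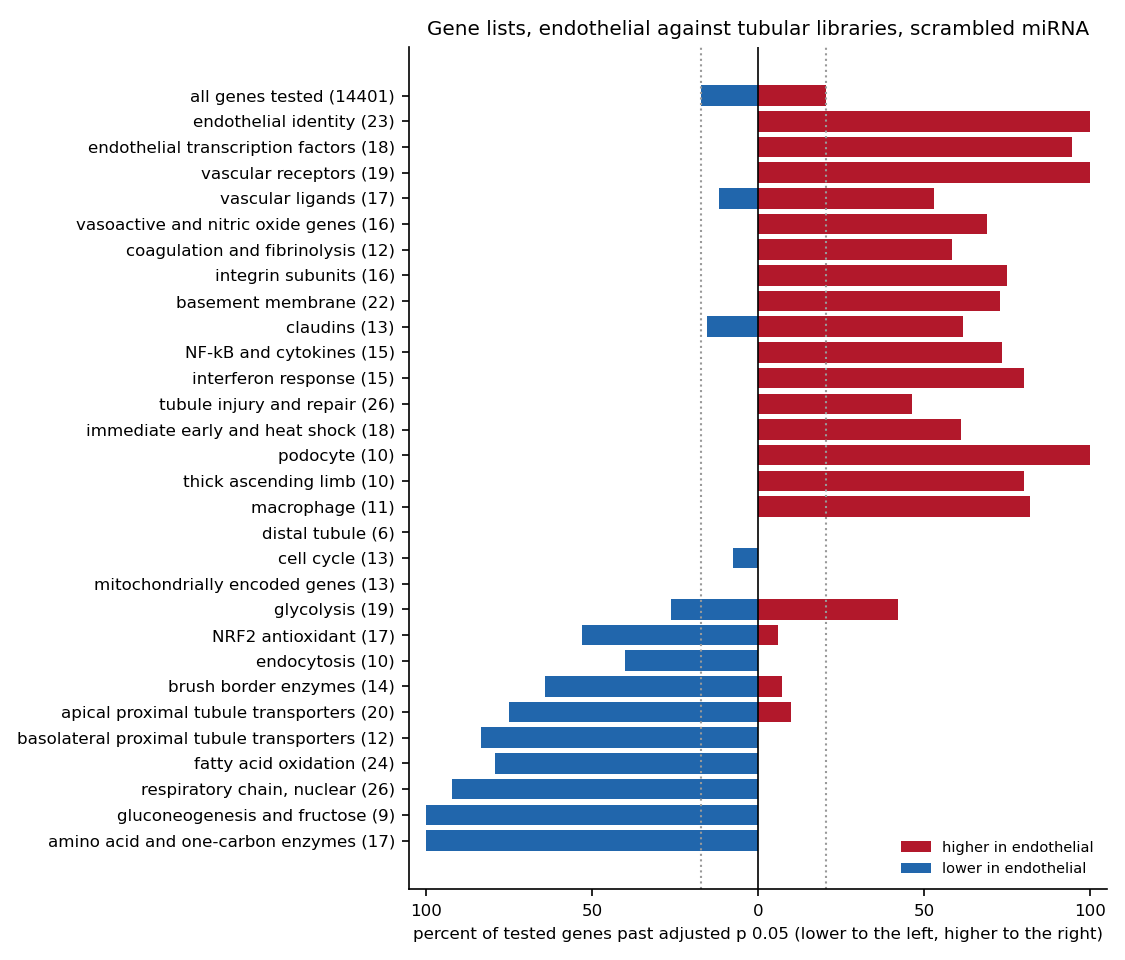
Percent of the tested genes of each list that passed an adjusted p of 0.05, higher in endothelial libraries to the right and lower to the left, with the number tested in brackets; dotted lines mark 20.5% and 17.3%, the shares over all genes tested. Endothelial identity, vascular receptor and podocyte lists reach 100% on the right, and gluconeogenesis and amino acid lists reach 100% on the left.

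Promoter letters were read for the members that hold a known factor motif, because the genes of HNF4 and ETS factors differed between the cell types. HNF4 proteins bind forms of CAAAGTCCA, and ETS proteins, Erg and Ets1 among them, bind forms of CCGGAAGT or CAGGAAGT. The sequences are RefSeq windows of GRCm38.p6, and 10450 of the 14401 genes tested matched a window of 250 bases before to 50 after the gene start. On both strands, CAAAGTCCA was in 0.931% (22 of 2363) of the promoters of genes lower in endothelial libraries. It was in 0.339% (10 of 2951) of those of higher genes and 0.456% (61 of 13379) of those of all genes tested. These counts are of windows, and some genes have several. HNF1 and TATA motifs, searched as well, are not reported here. CCGGAAGT was in 2% of promoters of higher genes, 8.34% of promoters of lower genes and 7.56% of all tested, and CAGGAAGT in 3.86%, 3.39% and 3.42%. The 2 ETS forms share their last letters and cannot overlap at the same place.
The 250 bases before the gene start are shown for 4 called genes, chosen after their values were seen, with the motif in capitals. Slc3a1, a subunit of the cystine transporter (chr17:85028097-85028346, plus strand, CAAAGTCCA from −39, log2 fold −1.57 ± 0.39), and Treh, the brush border trehalase (chr9:44672983-44673232, plus strand, the reverse complement of CAAAGTCCA from −71, −1.24 ± 0.27), were lower in endothelial libraries. Cpt2, of mitochondrial fatty acid uptake (chr4:107923590-107923839, minus strand, CCGGAAGT from −13, −1.10 ± 0.25), was lower, and Egfl7, a secreted endothelial protein (chr2:26583615-26583864, plus strand, CAGGAAGT from −81, 2.72 ± 0.26), was higher.
Slc3a1: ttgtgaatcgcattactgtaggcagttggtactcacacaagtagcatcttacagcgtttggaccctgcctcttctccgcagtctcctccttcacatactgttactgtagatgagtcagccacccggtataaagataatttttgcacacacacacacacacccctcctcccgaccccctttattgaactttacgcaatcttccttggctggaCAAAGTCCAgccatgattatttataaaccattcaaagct
Treh: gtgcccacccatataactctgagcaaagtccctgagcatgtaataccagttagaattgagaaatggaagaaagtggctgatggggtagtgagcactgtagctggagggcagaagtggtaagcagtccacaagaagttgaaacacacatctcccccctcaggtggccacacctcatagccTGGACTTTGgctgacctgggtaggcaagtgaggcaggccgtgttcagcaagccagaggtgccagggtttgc
Cpt2: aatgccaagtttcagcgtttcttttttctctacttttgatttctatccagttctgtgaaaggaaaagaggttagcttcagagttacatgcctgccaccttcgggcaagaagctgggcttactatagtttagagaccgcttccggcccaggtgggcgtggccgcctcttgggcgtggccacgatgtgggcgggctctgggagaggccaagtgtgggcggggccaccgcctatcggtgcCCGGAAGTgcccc
Egfl7: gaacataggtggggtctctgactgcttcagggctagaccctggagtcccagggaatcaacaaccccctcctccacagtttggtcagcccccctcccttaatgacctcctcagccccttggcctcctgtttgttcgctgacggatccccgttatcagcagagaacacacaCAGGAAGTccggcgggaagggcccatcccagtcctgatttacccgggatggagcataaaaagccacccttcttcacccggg
Positions count back from the gene start, and each sequence runs 5′ to 3′ on the gene's own strand. The 4 genes shown do not cover every direction found. Ece1 also held CAAAGTCCA and was higher (log2 fold 1.16). CCGGAAGT was also in Cldn7, which was higher (2.49), and in Mtor, which was lower (−0.73). CAGGAAGT was also in Acads, which was lower (−1.32), and in Mrc1, which was higher (3.53). A match in letters is a description and not a binding site.

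Transcript isoforms gave no call. The share of each transcript in its gene's TPM was tested for 21619 transcripts of 6101 genes with limma on a logit scale (0.5 TPM added), and 0 passed (0% of transcripts tested), against 1631 at an unadjusted p under 0.05. The lowest adjusted p was 0.059. In a list of 18 genes known for isoforms that differ between epithelium and mesenchyme, 11 genes with 63 transcripts could be tested, and 12 of the 63 had shares that did not overlap, beside 12.8% of all transcripts. Myl6-206, of a myosin light chain, made up 13.0, 16.6 and 16.6% of its gene's TPM in endothelial and 2.40, 1.82 and 2.20% in tubular libraries (adjusted p = 0.0823, limma). Tpm1-213, of a tropomyosin, made up 12.8, 15.6 and 26.4% in endothelial and 0, 1.53 and 0% in tubular libraries (adjusted p = 0.154, limma). Esrp1, a splicing regulator of epithelia, was higher in endothelial libraries (2.40 ± 0.28), as was Fgfr2 (2.94 ± 0.36), whose splicing it controls. No Fgfr2 transcript was among those tested for shares. Thick ascending limb, collecting duct and podocyte genes were higher in endothelial libraries too, and their part in both folds was not tested.

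Libraries of the exosome and mimic groups, which share no library with the scrambled-miRNA groups, gave the same contrast in other groups, with 3 libraries of each cell type for exosomes and 2 for the mimic. These contrasts came from a fit of all 16 libraries, whose scaling and spread estimates include the scrambled-miRNA libraries. In that fit 6785 genes passed with scrambled miRNA, so the percentages past the threshold are not from like fits. Of the 5439 genes called with scrambled miRNA, 5408 (99.4%) had the same direction with exosomes and 5016 (92.2%) also passed there, where 50.7% of 17143 genes passed, 29% as higher and 21.7% as lower. With the mimic, 5364 (98.6%) had the same direction and 4693 (86.3%) also passed, beside a background of 45.9%, 26.5% higher and 19.4% lower, and 5 passed in the opposite direction. Over all 14401 genes tested in both, 86.5% kept direction with exosomes and 84.0% with the mimic. List medians had the same sign under all 3 treatments for 52 of 55 lists. The exceptions were hypoxia, cell cycle (−0.22 with scrambled miRNA, 1.11 for exosomes and 0.52 for the mimic) and fibroblast genes (−0.43, 0.82 and 2.37, in the same order).

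The cell type difference itself was tested between treatments by interaction terms over 16 libraries, and 0 of 17143 genes passed for scrambled miRNA against exosomes (1333 at an unadjusted p under 0.05, 31 by DESeq2). For scrambled miRNA against the mimic 0 passed in edgeR (2650 at an unadjusted p under 0.05, 595 by DESeq2). Calls also depended on single libraries: 76 genes passed against exosomes without endothelial exosome library 1, and 105 against the mimic without tubular mimic library 1 and 33 without tubular scrambled-miRNA library 1.

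Values set side by side show where the medians stood apart. The median log2 fold of proximal tubule markers was −2.33 with scrambled miRNA, against −2.20 under exosomes and −4.40 under the mimic, and that of the injury list was 1.59, 3.65 and 3.59. Havcr1 was at 0.631 to 22.4 TPM in endothelial and 2.19 to 2.80 TPM in tubular libraries with exosomes. Those lay below every scrambled-miRNA value except that of tubular library 1. Slc34a1 was at 62.5 to 602 TPM in endothelial and 818 to 1001 TPM in tubular libraries with exosomes. With the mimic it was at 75.2 and 65.3 TPM in endothelial and 1713 and 1407 TPM in tubular libraries. These per-gene interactions did not pass: the adjusted p for Slc34a1 was 0.979 against exosomes and 0.345 against the mimic (edgeR). Over all genes tested the median was −0.056 with scrambled miRNA (0.025 in the fit of 16 libraries), 0.088 for exosomes and 0.098 for the mimic.

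**Figure D5:**
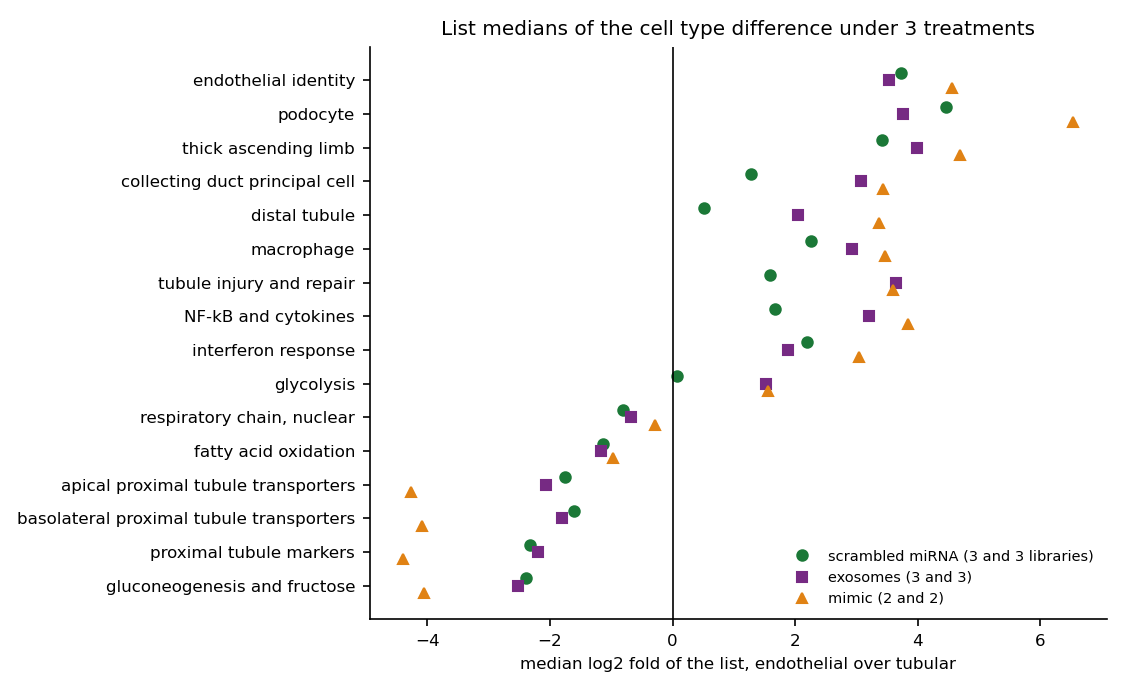
Median log2 fold of endothelial over tubular libraries for 16 gene lists with scrambled miRNA (circles), exosomes (squares) and the miR-486-5p mimic (triangles). Signs match in all 16 lists, and the proximal tubule markers lie at −2.33 with scrambled miRNA, −2.20 under exosomes and −4.40 under the mimic, a difference between medians that was not tested.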

How the data were processed

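Poly(A) RNA-seq was analysed in 6 libraries, 3 endothelial and 3 tubular, with 10 further libraries of the exosome and mimic groups for comparison. The submitters' processing notes name the build GRCm38 and the tools DESeq2 and Salmon 0.13.1. The deposited tables give, per transcript, an estimated count and TPM, together with an effective length, and the authors' annotation version, strand setting and read filters were not given in the sources used here. TPM is scaled to the same total per library by the authors and carries no depth, whereas estimated counts sum to 8273783 to 12969393 reads in the 6 libraries. The labels call these separate samples, and p-values measure the spread between them.

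Estimated counts were summed per gene and rounded, and TPM was summed per gene. Genes were filtered with edgeR's filterByExpr (minimum count 10, minimum total 15), TMM-normalized and tested with edgeR 4.0.16's quasi-likelihood test in R 4.3.3, with Benjamini-Hochberg adjustment and a threshold of 0.05. Interactions and the contrasts within the exosome and mimic groups used a fit of 16 libraries. Isoform shares were tested with limma 3.58.1 on transcripts of genes with at least 5 TPM and a share of at least 5%. Errors of log2 folds are standard errors of the fit. The tests were checked on simulated data.

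The gene lists and their members were chosen with earlier results of these data known. Genes named are fixed anchors, up to 3 members of each list with the largest log2 fold past the threshold at 10 TPM or more in the higher group, and the 10 largest in each direction at 100 TPM or more. Other members named, mostly those that went against their list or did not pass, were chosen after their values were seen. Some genes that the rule names are not reported here. Alternatives were RLE normalization, library size alone, DESeq2 1.42.0, no count filter, a transcript length offset, a replicate block, the fit of 16 libraries and leaving out each library. An added one left out a library of each cell type together.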

Additional observations from a re-analysis of the deposited data

How the results depend on the processing

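The count of genes lower in endothelial libraries, 2490, became 1530 with scaling by library size alone and 1637 with a transcript length offset, and 1385 to 2315 when single libraries were left out. The total of 5439 calls ranged from 3493 to 5308 when single libraries were left out. For the interactions, at 0 calls, DESeq2 gave 31 genes for exosomes and 595 for the mimic, no count filter gave 503 and 1716, and a fit of 4 groups alone gave 184 for the mimic. Leaving out single libraries gave 0 to 76 calls for exosomes and 0 to 105 for the mimic. Isoform calls went to 179 with 0.1 TPM added in place of 0.5. The median log2 fold of the cell cycle list, −0.22, became 0.0048 with library size alone, and −0.70 (without endothelial library 1) to 0.10 (without endothelial library 3) when single libraries were left out, with 0.07 without tubular library 1. That of the fibroblast list, −0.43, became 0.95 with the length offset, 0.33 in the fit of 16 libraries, and −0.76 (without endothelial library 1) to 0.14 (without tubular library 3) when single libraries were left out. The cause of these moves was not tested. Of 148 named genes, 139 passed, 113 of these passed under every alternative, and 0 reversed. Calls lost numbered 17 without endothelial library 2 and at most 9 under any other alternative.

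The libraries numbered alike in both cell types correlated in their deviations from the group means at 0.070, 0.051 and 0.126, so the numbers were not taken to pair them, although each library correlated best with its own number. With the replicate block 5461 genes passed, both interactions and the isoform test stayed at 0, and the counts in each direction were 2877 and 2584. At 8273783 to 12969393 reads a library, genes of low level were not tested.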
